A study of Zea mays with 17 samples.

Results

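The rows of the maize (Zea mays) count table for ribosomal RNA (rRNA) and transfer RNA (tRNA) genes of the mitochondrial and plastid genomes are described here across 8 groups of anther libraries. They were taken by gene identifier: every row whose identifier began with the mitochondrial or plastid prefix, apart from the rows for proteins and reading frames. The choice found 76 rows of the 46430 in the table, 33 mitochondrial (4 rRNA and 29 tRNA) and 43 plastid (8 rRNA and 35 tRNA). The rule itself uses identifiers and no measured value, but it was set with earlier results of these data known.

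Anthers of 2.0 mm and 1.5 mm came from greenhouse plants of the inbred line W23 bz2, whose genotype is labelled wild type W23. All groups share the bz2 background, an allele of an anthocyanin pigment gene. At each length there were 3 laser-captured cell types, tapetum (TAP, the anther wall layer that surrounds and feeds the meiocytes), meiocytes (ME, the cells that enter meiosis) and other somatic cells (OSC, the remaining cells as a mixture), and fixed whole anthers (FA). In laser capture, selected cells are excised from sectioned tissue under a microscope. There were 2 libraries per group and 3 for FA at 1.5 mm, 17 in all, made by CEL-seq2 from total RNA. The labels do not say whether replicates came from separate plants or anthers, so p-values measure the spread between these libraries, which may be technical.

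Mitochondria and plastids keep small genomes of their own, and they translate the few proteins encoded there on bacterial-type ribosomes. The rRNAs form the core of those ribosomes and the tRNAs bring the amino acids, while the ribosomal proteins are encoded partly in the organelle and mostly in the nucleus. In maize anthers the tapetum is known for its many mitochondria, and cytoplasmic male sterility in maize arises from mitochondrial genes. CEL-seq2 starts from poly(A) stretches and counts 3' ends of transcripts. Organelle rRNAs and tRNAs carry no stable poly(A) tail, and in plant organelles a tail commonly marks RNA for decay, so the counts describe the molecules that primed and not the amounts of rRNA or tRNA in the cells. In bulk samples fewer cells of a type and less RNA per cell cannot be told apart.

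Library totals ran from 280760 to 4428287 counts, so that 3 counts, the most that a count of 0 allows, equal 10.7 CPM (counts scaled to a common library total) in the smallest library and 0.677 CPM in the largest. Such limits and the intervals given here cover counting error only. The TAP libraries differed in depth by length, with 2657831 and 3230264 counts at 2.0 mm against 495100 and 501897 at 1.5 mm. OSC libraries had 1505065 and 2635680 counts at 2.0 mm against 815385 and 280760 at 1.5 mm. In ME depth went the other way, with 974064 and 559302 counts at 2.0 mm against 2329806 and 2795716 at 1.5 mm. The part of depth in the comparisons of lengths and in the interaction was not tested. For the second ME library of 1.5 mm, r across genes was 0.863 with the first ME library of 2.0 mm and 0.772 with its own replicate. The first ME library of 2.0 mm correlated with its own replicate at 0.792. Spread between replicates was large among captured libraries, with a common biological coefficient of variation of 70.6%, against 29.5% among FA libraries. Nuclear rows carry no gene names, so the labelled cell types were not checked against markers.

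Of the 76 rows, 32 had 0 counts in every library: 9 mitochondrial tRNA rows, 2 plastid rRNA rows and 21 plastid tRNA rows. A further 22 were detected at low totals, 11 mitochondrial rows with 1 to 39 counts over all libraries and 11 plastid rows with 2 to 153 counts. The remaining 22 rows averaged at least 20 counts in at least 1 group and are described by name, 13 mitochondrial and 9 plastid. The low mitochondrial rows include the fourth rRNA row, rrn16-ct. The suffix ct marks copies of plastid origin in the mitochondrial genome, and 11 mitochondrial rows carry it. RefSeq annotates 8 of the mitochondrial tRNA rows as pseudogenes, among them trnD, trnR-a, trnL-b and trnL-c-ct, which were among the tRNA rows with the most counts.

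The 76 rows together held 499886 counts, 492612 of them mitochondrial and 7274 plastid. Mitochondrial rRNA rows took 484799 of those counts and mitochondrial tRNA rows 7813. Plastid rRNA rows took 4784 and plastid tRNA rows 2490. Among the mitochondrial rows, rrn26 (ZeamMr002, the large-subunit rRNA, 3552 bases) held 76.7% of the counts, rrn18 (ZeamMr004, the small-subunit rRNA, 1968 bases) 16.1% and rrn5 (ZeamMr003, the 5S rRNA, 126 bases) 5.60%. Per length the order was different: rrn5 averaged 7938 CPM per kb over the 17 libraries, rrn26 5199 and rrn18 1924. A method that reads the 3' end of a tailed transcript does not give more counts to a longer one. Where the RNAs of these rows primed is not known, so both scales are given.

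Mitochondrial rRNA rows formed 0.666% ± 0.0519 of all counts in TAP at 2.0 mm, against 7.65% ± 0.679 in TAP at 1.5 mm (SD, n = 2 each). In ME the share was 2.95% ± 0.520 at 2.0 mm and 2.96% ± 1.41 at 1.5 mm. In OSC it was 0.730% ± 0.159 at 2.0 mm and 2.42% ± 0.599 at 1.5 mm. In FA it was 0.805% ± 0.192 at 2.0 mm (n = 2) and 1.06% ± 0.324 at 1.5 mm (n = 3). By group means the share in TAP of 1.5 mm was thus the highest of the 8 groups and that in TAP of 2.0 mm the lowest. The TAP libraries of 2.0 mm (0.702% and 0.629%) overlapped those of OSC (0.618% and 0.842%) and FA (0.940% and 0.669%) at that length. Other mitochondrial rows, for proteins and reading frames, took 0.271% ± 0.0628 in TAP at 2.0 mm and 2.50% ± 0.0793 at 1.5 mm. Within mitochondrial counts alone the rRNA share moved less, with group means between 54.5% (ME at 1.5 mm) and 74.6% (TAP at 1.5 mm).

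Mitochondrial tRNA rows had group means between 0.00423% of all counts (OSC at 2.0 mm) and 0.0932% (TAP at 1.5 mm). Plastid rRNA rows had 0.0653% ± 0.0320 in OSC at 2.0 mm and 0.0413% ± 0.000522 in OSC at 1.5 mm, the highest of the groups, and 0.00146% ± 0.000520 in TAP at 2.0 mm, the lowest. Plastid tRNA rows ran from 0.00143% in FA at 2.0 mm to 0.0313% in OSC at 1.5 mm. As a share of plastid counts, plastid rRNA rows made up 38.3% ± 8.16 in OSC at 2.0 mm, against 10.4% ± 0.685 in OSC at 1.5 mm. The other 6 groups lay between 2.30% (TAP at 2.0 mm) and 12.7% (FA at 2.0 mm).

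**Figure D1:**
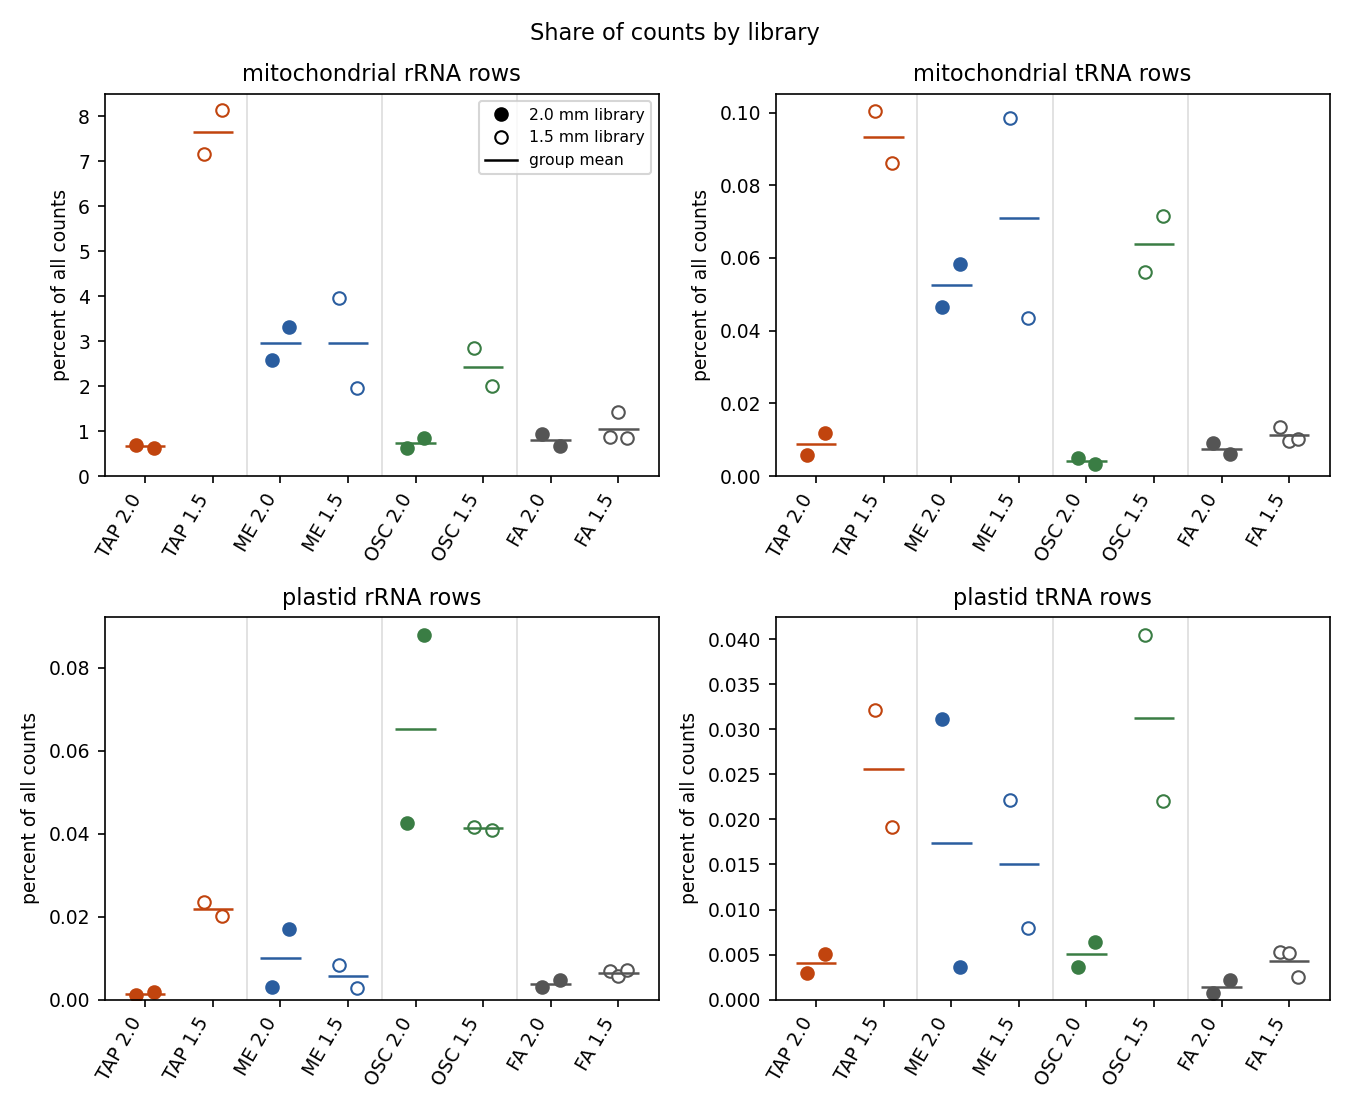
Percent of all counts taken by mitochondrial rRNA, mitochondrial tRNA, plastid rRNA and plastid tRNA rows, 1 panel each, on linear axes from 0; points are libraries (filled at 2.0 mm, open at 1.5 mm) and lines are group means. TAP at 1.5 mm stands highest for both kinds of mitochondrial row, with a mean of 7.65% for rRNA, while OSC at 2.0 mm stands highest for plastid rRNA, with a mean of 0.0653%.

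Level by level, rrn26 had 6235 and 5487 CPM in TAP at 2.0 mm, against 56655 and 66024 CPM in TAP at 1.5 mm. It had 20848 and 25872 CPM in ME at 2.0 mm, against 30590 and 15404 CPM in ME at 1.5 mm. Its OSC values were 4215 and 6223 CPM at 2.0 mm, against 23363 and 17356 CPM at 1.5 mm. TAP and OSC of 2.0 mm thus lay below their 1.5 mm libraries without overlap, and the ME libraries overlapped. In FA it had 6263 and 3848 CPM at 2.0 mm, against 7128, 11301 and 7100 CPM at 1.5 mm. Its group means spanned 12.1-fold, TAP at 1.5 mm the highest and FA at 2.0 mm the lowest. TAP at 2.0 mm, OSC at 2.0 mm and FA at both lengths had overlapping or adjoining ranges.

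For rrn18 the TAP values were 753 and 792 CPM at 2.0 mm, against 14086 and 14467 CPM at 1.5 mm. ME had 3122 and 3229 CPM at 2.0 mm, against 6175 and 2307 CPM at 1.5 mm. OSC had 1137 and 1457 CPM at 2.0 mm, against 4783 and 2322 CPM at 1.5 mm. Only in TAP and OSC did the lengths not overlap, with the 2.0 mm libraries lower, while FA had 2299 and 1777 CPM at 2.0 mm, against 1487, 2835 and 1353 CPM at 1.5 mm. The highest group mean of rrn18 (TAP at 1.5 mm) was 18.5 times the lowest (TAP at 2.0 mm).

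A different order was seen for rrn5. TAP had 36.1 and 12.1 CPM at 2.0 mm, against 982 and 835 CPM at 1.5 mm. ME had 1860 and 4082 CPM at 2.0 mm, against 2789 and 1883 CPM at 1.5 mm. OSC had 827 and 744 CPM at 2.0 mm, against 277 and 267 CPM at 1.5 mm. FA had 837 and 1066 CPM at 2.0 mm, against 188, 177 and 141 CPM at 1.5 mm. So the 2.0 mm libraries lay below those of 1.5 mm in TAP, above them in OSC and FA, and on both sides of them in ME. The 2 ME groups were the highest and did not separate from each other, and TAP at 2.0 mm was the lowest, 123 times below ME at 2.0 mm by group means.

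**Figure D2:**
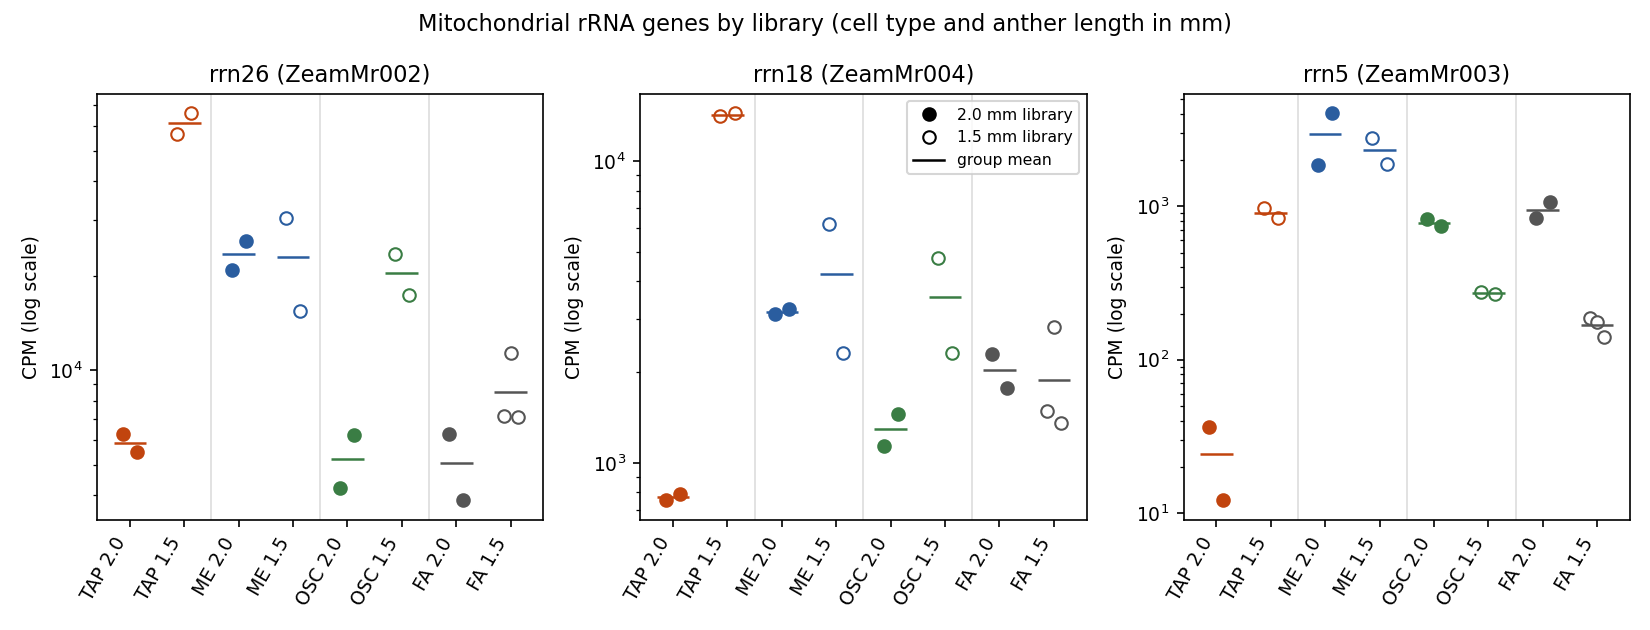
Level of rrn26, rrn5 and rrn18 in each library, as CPM on log axes; points are libraries (filled at 2.0 mm, open at 1.5 mm) and lines are group means. In TAP all 3 rows are lower at 2.0 mm, and for rrn5 the OSC and FA libraries are higher at 2.0 mm.

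RefSeq lists rrn5 and rrn18 next to each other, yet their counts did not keep a fixed ratio. Counts of rrn5 over those of rrn18 were 0.0480 and 0.0152 in TAP at 2.0 mm, against 0.0697 and 0.0577 in TAP at 1.5 mm. They were 0.596 and 1.26 in ME at 2.0 mm, against 0.452 and 0.816 in ME at 1.5 mm. They were 0.727 and 0.511 in OSC at 2.0 mm, against 0.0579 and 0.115 in OSC at 1.5 mm. In FA the ratio averaged 0.482 ± 0.167 at 2.0 mm (SD, n = 2) and 0.0977 ± 0.0324 at 1.5 mm (n = 3). The ratio was thus higher at 2.0 mm in OSC and FA and lower in TAP, each without overlap. Counts of rrn18 over those of rrn26 moved less, with library values from 0.121 to 0.462.

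**Figure D3:**
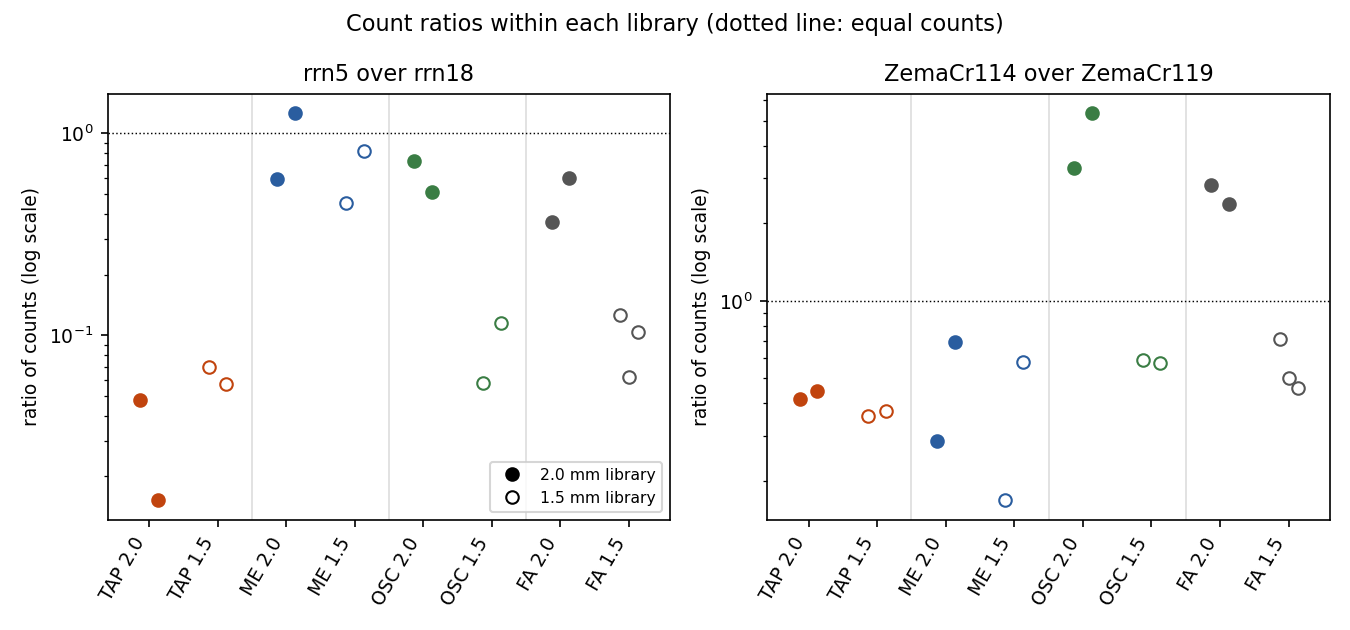
Ratio of counts within each library on log axes, rrn5 over rrn18 at left and ZemaCr114 over ZemaCr119 at right; filled points are 2.0 mm and open points 1.5 mm libraries, and the dotted line is equal counts. The left ratio is between 0.0152 and 0.0697 in all 4 TAP libraries, and the right ratio is above 1 in the OSC and FA libraries of 2.0 mm alone.

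Among mitochondrial tRNA rows the most counts fell to trnR-a (ZeamMt017, arginine, 72 bases) and trnD (ZeamMt008, aspartic acid, 74 bases), both annotated as pseudogenes. Levels of trnR-a were 17.7 and 50.2 CPM in TAP at 2.0 mm, against 503 and 323 CPM in TAP at 1.5 mm. OSC had 38.5 and 17.8 CPM at 2.0 mm, against 396 and 499 CPM at 1.5 mm. ME had 85.2 and 259 CPM at 2.0 mm, against 212 and 157 CPM at 1.5 mm, and FA stayed between 29.5 and 42.7 CPM in its 5 libraries. TAP and OSC separated by length, and ME and FA overlapped.

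Levels of trnD were 12.8 and 18.9 CPM in TAP at 2.0 mm, against 160 and 173 CPM in TAP at 1.5 mm. ME had 111 and 141 CPM at 2.0 mm, against 296 and 112 CPM at 1.5 mm. OSC had 5.32 and 4.55 CPM at 2.0 mm, against 68.7 and 71.2 CPM at 1.5 mm. FA had 5.65 and 2.60 CPM at 2.0 mm, against 55.7, 27.2 and 41.3 CPM at 1.5 mm. Every group but ME thus had lower values at 2.0 mm without overlap. The leucine pseudogene row trnL-b (ZeamMt021) had 0 counts and 1 count in TAP at 2.0 mm, against 58 and 64 counts in TAP at 1.5 mm. Its other libraries lay between 0.759 and 25.8 CPM.

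Other named mitochondrial tRNA rows were low, with group means between 0 and 92.7 CPM. They are trnP-a1 (proline), trnK (lysine), trnM (methionine), trnC-ct (cysteine), trnS-a and trnS-b (serine) and trnL-c-ct (leucine, a pseudogene). Replicates of trnL-c-ct disagreed in ME, at 143 and 3.58 CPM at 2.0 mm and 155 and 27.9 CPM at 1.5 mm. trnP-a1 had 415 counts over all libraries and trnP-a2, an annotated row of equal length, 5.

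The plastid rRNA rows come in pairs of equal length, since plastid rRNA genes lie in the inverted repeat of the plastid genome. RefSeq gives them no symbols, and they are named here by identifier. Over all libraries ZemaCr114 and ZemaCr119 (2884 bases each) had 2778 and 1164 counts, ZemaCr115 and ZemaCr118 (95 bases) 545 and 153, ZemaCr113 and ZemaCr120 (1491 bases) 70 and 74, and ZemaCr116 and ZemaCr117 (121 bases) 0 each. How the authors assigned reads that match both copies is not given in the sources used here, so values of a single copy are uncertain, and sums of the pairs with most counts are given as well.

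ZemaCr114 had 1.88 and 4.02 CPM in TAP at 2.0 mm, against 30.3 and 35.9 CPM in TAP at 1.5 mm. ME had 2.05 and 32.2 CPM at 2.0 mm, against 7.73 and 5.37 CPM at 1.5 mm. OSC had 315 and 715 CPM at 2.0 mm, against 95.7 and 85.5 CPM at 1.5 mm. The OSC libraries of 2.0 mm were the highest of the 17 for this row, and those of 1.5 mm came next. FA had 17.2 and 27.7 CPM at 2.0 mm, against 11.1, 7.76 and 13.4 CPM at 1.5 mm.

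ZemaCr119 had 4.51 and 8.98 CPM in TAP at 2.0 mm, against 84.8 and 95.6 CPM in TAP at 1.5 mm. OSC had 95.7 and 133 CPM at 2.0 mm, against 162 and 150 CPM at 1.5 mm. Its CPM was thus lower at 2.0 mm in OSC, where that of ZemaCr114 was higher, but its fitted log2 difference there was -0.18 (SE 0.86, adjusted p = 0.984 by edgeR). Counts of ZemaCr114 over those of ZemaCr119 were 3.29 and 5.37 in OSC at 2.0 mm, against 0.591 and 0.571 in OSC at 1.5 mm. For FA the ratio was 2.81 and 2.37 at 2.0 mm, against 0.460 to 0.708 over the 3 libraries at 1.5 mm. In the 8 TAP and ME libraries the ratio stayed between 0.168 and 0.692. Summed, the pair had 629 ± 310 CPM in OSC at 2.0 mm, against 246 ± 15.9 CPM in OSC at 1.5 mm. It had 9.70 ± 4.67 CPM in TAP at 2.0 mm, against 123 ± 11.6 CPM in TAP at 1.5 mm (SD, n = 2 each). In FA the summed pair had 31.3 ± 11.4 CPM at 2.0 mm (n = 2) and 30.9 ± 10.2 CPM at 1.5 mm (n = 3), with overlapping libraries, and in ME 9.24 and 78.7 CPM at 2.0 mm and 14.7 and 53.7 CPM at 1.5 mm. The short row ZemaCr115 had 1.81 and 1.30 CPM in FA at 2.0 mm, against 31.5, 28.7 and 22.7 CPM in FA at 1.5 mm. Summed with ZemaCr118 it had 3.54 ± 0.108 CPM in FA at 2.0 mm (n = 2), against 32.7 ± 6.59 CPM in FA at 1.5 mm (n = 3), and 4.05 ± 0.404 CPM in TAP at 2.0 mm, against 82.4 ± 32.0 CPM in TAP at 1.5 mm. This sum had 52.8 ± 44.2 CPM in ME at 2.0 mm and 14.8 ± 2.73 CPM in ME at 1.5 mm, and 17.7 ± 8.18 CPM in OSC at 2.0 mm and 138 ± 4.02 CPM in OSC at 1.5 mm.

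Of the plastid tRNA rows trnfM (ZemaCt126, the initiator tRNA) had the most counts, 1184. It had 19.6 and 24.5 CPM in TAP at 2.0 mm, against 208 and 95.6 CPM in TAP at 1.5 mm. ME had 202 and 8.94 CPM at 2.0 mm, against 85.0 and 46.9 CPM at 1.5 mm. OSC had 3.32 and 6.07 CPM at 2.0 mm, against 195 and 42.7 CPM at 1.5 mm. TAP and OSC separated by length, and the ME replicates of 2.0 mm lay on both sides of those of 1.5 mm. Plastid trnK (ZemaCt121, lysine) was highest in OSC at 1.5 mm, with 114 CPM in each library. OSC had 29.9 and 52.7 CPM at 2.0 mm, which overlapped TAP at 1.5 mm (40.4 and 51.8 CPM). The remaining rows, trnG (glycine), trnR (arginine), trnS (serine) and trnL (leucine), had group means between 0 and 47.4 CPM.

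**Figure D4:**
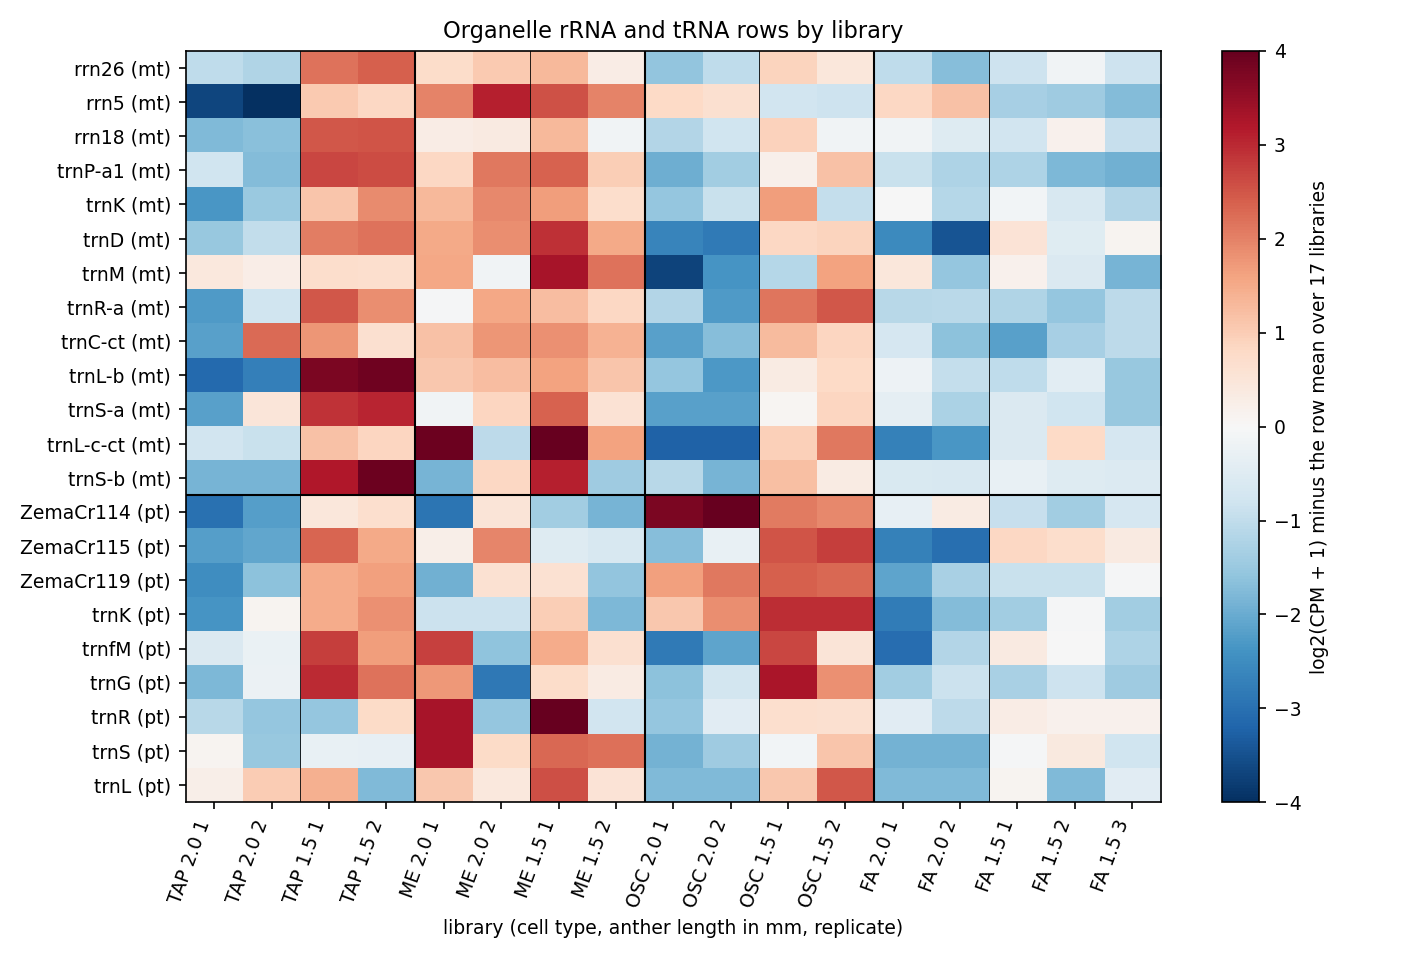
Level of the 22 named rows (down; mt, mitochondrial; pt, plastid) in the 17 libraries (across), as log2 of CPM with a pseudocount of 1, minus each row's mean over libraries; the colour scale ends at 4 in each direction. Most mitochondrial rows are high in TAP at 1.5 mm and low in TAP, OSC and FA at 2.0 mm, while ZemaCr114 is highest in OSC at 2.0 mm.

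Differences were tested with edgeR's quasi-likelihood test across all rows of the table, and a row passed when its Benjamini-Hochberg adjusted p over all rows tested was under 0.05. All fold changes below are log2, with standard errors (SE). Each SE was derived from the test, as the absolute log2 fold change over the square root of the F statistic. A filter on low counts left 14 mitochondrial and 11 plastid rows in the fits of captured libraries, and 9 and 5 in the fit of FA libraries. A row that passed the filter through 1 high group alone was bound to differ between groups, so counts over these rows describe them and nothing more. DESeq2, a second test, fitted 44 organelle rows in the captured libraries. Its counts are given without its share over all rows, so they describe that setting only.

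Between lengths within TAP, 3.71% of all rows passed, 0.868% higher and 2.85% lower at 2.0 mm. Of the organelle rows tested, 7 of 14 mitochondrial and 1 of 11 plastid rows fell at 2.0 mm and none rose, with median log2 changes of -3.81 and -3.41 against 0.00 over all rows. The rRNA rows rrn26 (-3.36, SE 0.44, adjusted p = 0.00172), rrn5 (-5.19, SE 0.65, adjusted p = 0.00141) and rrn18 (-4.18, SE 0.56, adjusted p = 0.00198) fell. Among tRNA rows trnD (-3.36, SE 0.68, adjusted p = 0.0143), trnR-a (-3.57, SE 0.73, adjusted p = 0.0154) and trnP-a1 (-4.07, SE 1.02, adjusted p = 0.0420) fell. The fall of trnL-b (adjusted p = 0.00254) rested on 1 count in TAP at 2.0 mm, and its summed CPM was 721 times higher in TAP at 1.5 mm (95% counting interval 127 to 28689). ZemaCr115 was the plastid row (-4.40, SE 0.97, adjusted p = 0.0218). The depth of the TAP libraries moved with length in the same comparison, and its part in the result was not tested.

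The calls of rrn26, rrn5, rrn18 and trnL-b held in each of the 12 fits that left out 1 library, with adjusted p of at most 0.0400. Calls of trnD were lost without any 1 of the 4 TAP libraries (up to 0.157), and those of trnR-a without TAP 1.5 mm replicate 1 or either TAP library of 2.0 mm (up to 0.153). Those of trnP-a1 were lost without any 1 TAP or OSC library (up to 0.323). ZemaCr115 lost its call without any 1 TAP library or either OSC library of 1.5 mm (up to 0.203).

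In ME 0 organelle rows passed between lengths by edgeR, where 0.0059% of all rows did. At an unadjusted p under 0.05 the count was also 0, and DESeq2 called 0. The log2 changes were -0.36 (SE 0.40) for rrn26, -0.06 (SE 0.54) for rrn5 and -0.78 (SE 0.50) for rrn18, against a median of -0.58 over all rows. In OSC 0 organelle rows passed as well, where 0.289% of all rows did (0.0885% higher and 0.201% lower at 2.0 mm). There, 11 mitochondrial and 5 plastid rows had an unadjusted p under 0.05, and DESeq2 called 7 rows. The smallest adjusted p in OSC were those of trnD (-3.54, SE 0.72) and trnR-a (-3.69, SE 0.74), 0.0509 each by edgeR. For rrn26 the log2 difference was -1.70 (SE 0.41), for rrn5 1.81 (SE 0.56) and for ZemaCr114 2.76 (SE 0.87), with adjusted p of 0.116, 0.231 and 0.242 by edgeR.

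In FA 29.7% of all rows passed between lengths, 15.2% higher and 14.5% lower at 2.0 mm, so a count of organelle rows near that share says little. Of those tested, 3 of 9 mitochondrial and 2 of 5 plastid rows passed. rrn5 rose at 2.0 mm (2.66, SE 0.18, adjusted p = 2.16e-05), while rrn26 (-0.59, SE 0.29, adjusted p = 0.190) and rrn18 (0.27, SE 0.35, adjusted p = 0.604) did not pass. trnD (-3.09, SE 0.46, adjusted p = 0.00135), trnL-c-ct (-3.49, SE 0.85, adjusted p = 0.0143) and ZemaCr115 (-3.90, SE 0.44, adjusted p = 0.000311) fell. At 2.0 mm trnD had 25 and 6 counts, trnL-c-ct 2 and 2, and ZemaCr115 8 and 3. At 1.5 mm they had 85, 35 and 142, 8, 20 and 17, and 48, 37 and 78. These rows passed the low-count filter through their 1.5 mm libraries, so their adjusted p describe them and nothing more. ZemaCr114 lay at the threshold (1.16, SE 0.39, adjusted p = 0.04995) and lost its call without any 1 of the FA 1.5 mm libraries or FA 2.0 mm replicate 2 (up to 0.183). Its sum with ZemaCr119 was 31.3 CPM at 2.0 mm and 30.9 CPM at 1.5 mm. The other 4 calls held without any 1 library, but trnL-c-ct lost its call in a fit of all 17 libraries (adjusted p = 0.181 by edgeR).

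Whether the change with length differed among the 3 captured cell types was tested as an interaction, in which 1.17% of all rows passed. It passed for rrn5 (adjusted p = 0.0144), trnL-b (0.0399) and rrn26 (0.0490), and for 0 plastid rows by edgeR, of which 4 had an unadjusted p under 0.05 and 2 were called by DESeq2. For rrn18 the adjusted p was 0.0525. The calls of rrn26 and trnL-b were lost without any 1 TAP or OSC library, and that of rrn26 also without ME 2.0 mm replicate 2 (adjusted p up to 0.147 and 0.154), and rrn5 lost its call without OSC 1.5 mm replicate 1 (0.0612).

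**Figure D5:**
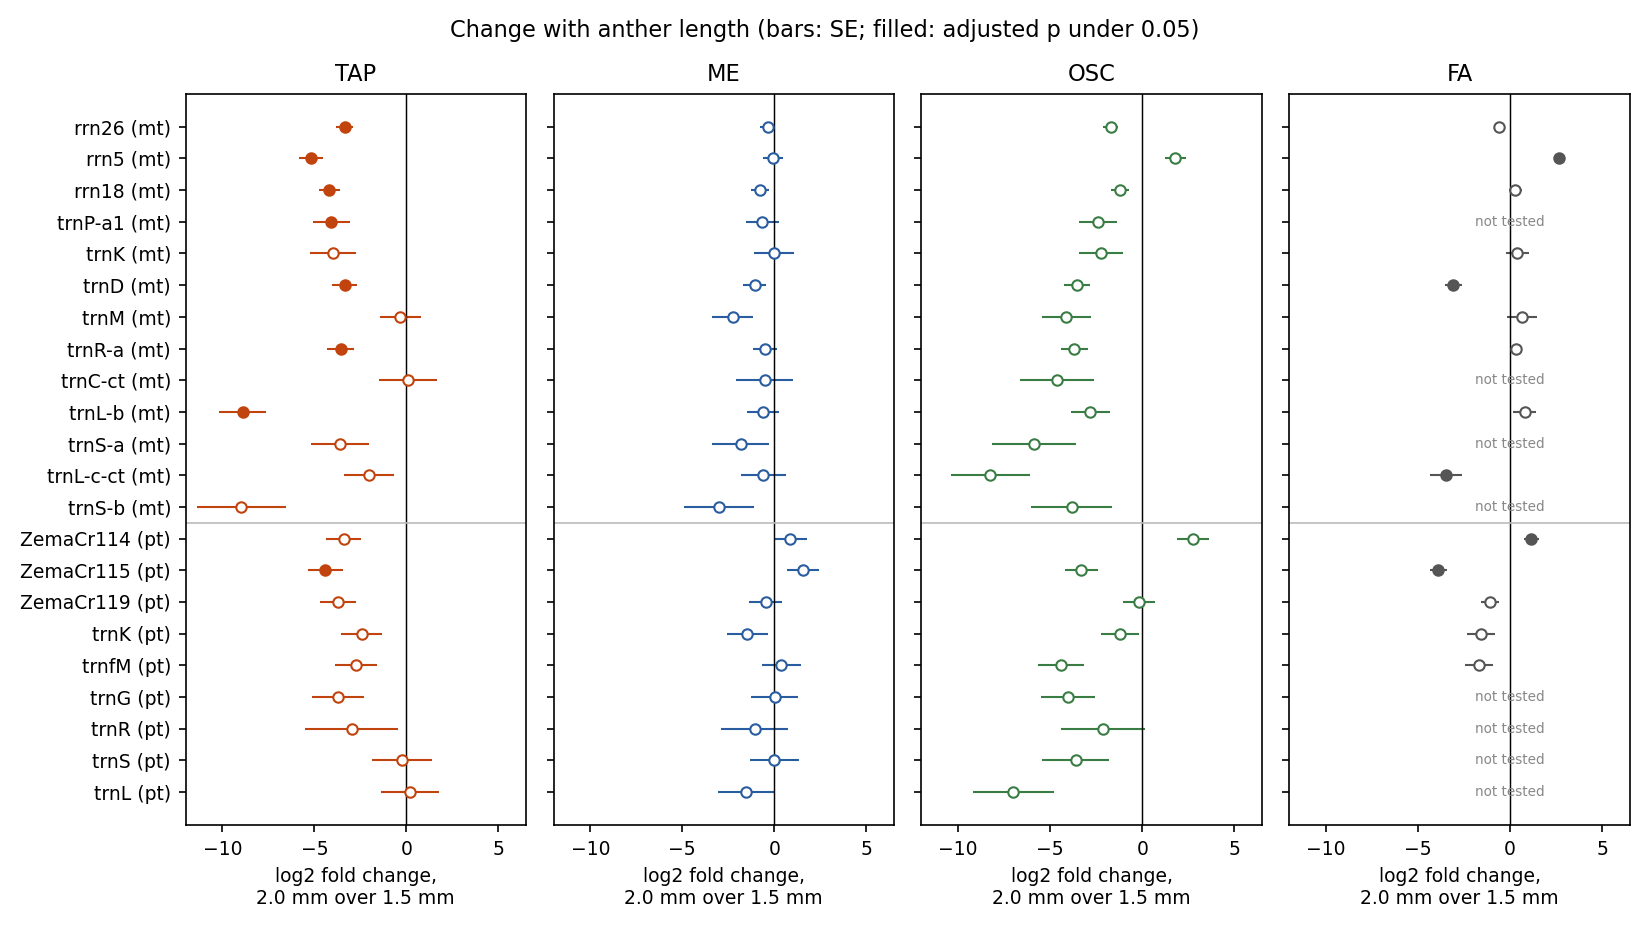
Log2 fold change, 2.0 mm over 1.5 mm, of the 22 named rows in TAP, ME, OSC and FA, with SE bars; filled points have an adjusted p under 0.05 by edgeR and rows that did not pass the filter are marked as not tested. Points of rows at 0 counts in 1 group depend on the prior count. rrn5 lies below 0 in TAP (-5.19) and above 0 in FA (2.66).

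Cell types were compared at each length. In 2.0 mm anthers 27.7% of all rows passed between TAP and ME, 18.1% higher and 9.66% lower in TAP, with a median log2 difference of 0.64 over all rows. Of the organelle rows, 9 of 14 mitochondrial and 1 of 11 plastid rows were lower in TAP and none higher. rrn5 had the largest difference (-6.76, SE 0.70, adjusted p = 0.000198), followed among the rRNA rows by rrn18 (-1.89, SE 0.51, adjusted p = 0.0158) and rrn26 (-1.84, SE 0.41, adjusted p = 0.00643). Among tRNA rows trnD (-2.83, SE 0.67, adjusted p = 0.00794), trnK (-3.92, SE 1.25, adjusted p = 0.0323) and trnR-a (-2.17, SE 0.69, adjusted p = 0.0330) were lower, and so was ZemaCr115 (-3.59, SE 0.94, adjusted p = 0.0133). trnL-b was lower on 1 count in TAP (adjusted p = 0.00330), with summed CPM 108 times higher in ME (95% counting interval 17.8 to 4397). trnP-a1 and trnL-c-ct passed at 0.0436 and 0.0477.

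Without 1 library, rrn26, rrn5 and trnL-b held throughout. rrn18 was lost without either TAP library of 2.0 mm (up to 0.0515) and trnD without the first of them (0.0550). trnK was lost without any 1 TAP or ME library of 2.0 mm (up to 0.159), trnR-a without ME 2.0 mm replicate 2 or TAP 2.0 mm replicate 1 (up to 0.247), and ZemaCr115 without ME 2.0 mm replicate 2 or either TAP library of 2.0 mm (up to 0.0837). trnP-a1 held in 4 and trnL-c-ct in 5 of the 12 fits. trnL-c-ct turned to 0.49 without ME 2.0 mm replicate 1 (adjusted p = 0.907).

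In 1.5 mm anthers 17.1% of all rows passed between TAP and ME, 10.0% higher and 7.13% lower in TAP, and 0 organelle rows did by edgeR, although 5 mitochondrial and 2 plastid rows had an unadjusted p under 0.05 and DESeq2 called 4. Here rrn26 (1.16, SE 0.41, adjusted p = 0.0632) and rrn18 (1.50, SE 0.50, adjusted p = 0.0552) had positive and rrn5 (-1.63, SE 0.55, adjusted p = 0.0578) negative log2 differences, none past the threshold by edgeR.

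ME against OSC at 2.0 mm had the most rows passing over the whole table, 36.9%, with 8.95% of all rows higher and 27.9% lower in ME, with an overall median of -1.40. Of the organelle rows, 8 of 14 mitochondrial rows were higher in ME and 0 lower, while 2 of 11 plastid rows were higher and 2 lower. rrn26 (1.79, SE 0.41, adjusted p = 0.00586), rrn5 (1.52, SE 0.55, adjusted p = 0.0444), trnD (4.28, SE 0.73, adjusted p = 0.00112) and trnM (4.36, SE 1.31, adjusted p = 0.0210) were higher. The value of trnM rests on few counts, 36 and 6 in the ME libraries and 0 and 4 in those of OSC. trnL-c-ct had 139 and 2 counts in the ME libraries and 0 in OSC, at least 46.7-fold higher against 3 counts per library (adjusted p = 0.00524). This limit rests on ME 2.0 mm replicate 1: without it the 2 counts left are within what a count of 0 allows. Both long plastid rRNA rows were lower in ME, ZemaCr114 (-5.38, SE 0.998, adjusted p = 0.00183) and ZemaCr119 (-2.53, SE 0.93, adjusted p = 0.0466). Plastid trnfM was higher in ME (4.15, SE 1.23, adjusted p = 0.0198), although its ME libraries differed widely.

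The calls of rrn26, trnD and ZemaCr114 in that comparison held without any 1 library. rrn5 lost its call without ME 2.0 mm replicate 2 or either OSC library of 2.0 mm (up to 0.260), trnM without ME or OSC 2.0 mm replicate 1 (up to 0.136), trnL-c-ct without ME 2.0 mm replicate 1 (0.0911), and trnfM without that library or either OSC library of 2.0 mm (up to 0.796). ZemaCr119 held in 3 of the 12 fits. The other calls were trnR-a, trnP-a1, trnL-b and plastid trnS, with adjusted p between 0.0217 and 0.0267, and each was lost without at least 1 of the libraries compared. Plastid trnS had 35 and 3 counts in the ME libraries and 1 in OSC, a summed CPM 103 times higher in ME (95% counting interval 17.3 to 4158). That ratio rests on ME 2.0 mm replicate 1, without which 3 counts are set against 1 and the adjusted p by edgeR was 0.188.

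At 1.5 mm, ME against OSC gave 23.8% of all rows, 7.49% higher and 16.3% lower in ME. rrn5 was higher in ME (3.39, SE 0.59, adjusted p = 0.00210) and kept its call without any 1 library. ZemaCr114 (-3.50, SE 0.92, adjusted p = 0.0161) and ZemaCr115 (-3.02, SE 0.90, adjusted p = 0.0274) were lower, the first losing its call without ME 1.5 mm replicate 2 or either OSC library of 1.5 mm (up to 0.0950), the second in 9 of the 12 fits (up to 0.126). These were the only organelle rows that passed, 1 of 14 mitochondrial and 2 of 11 plastid.

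TAP against OSC at 2.0 mm gave 15.0% of all rows, 2.45% higher and 12.5% lower in TAP. Of the organelle rows, 1 of 14 mitochondrial and 2 of 11 plastid rows passed, all lower: rrn5 (-5.24, SE 0.65, adjusted p = 0.000313), ZemaCr114 (-7.61, SE 1.09, adjusted p = 0.000836) and ZemaCr119 (-4.29, SE 0.99, adjusted p = 0.0124). The calls of rrn5 and ZemaCr114 held without any 1 library, and that of ZemaCr119 was lost without OSC 2.0 mm replicate 2 or either TAP library of 2.0 mm (up to 0.116). At 1.5 mm, 2.86% of all rows (0.614% higher and 2.24% lower in TAP) and 0 organelle rows passed by edgeR, with 4 mitochondrial and 0 plastid rows at an unadjusted p under 0.05 and 3 called by DESeq2. rrn26 (1.61, SE 0.41, adjusted p = 0.0521) and rrn18 (2.00, SE 0.51, adjusted p = 0.0527) came nearest by edgeR.

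The mean of the captured cell types was also set against FA, in a fit of all 17 libraries. Its common coefficient of variation was 57.1%, against 70.6% among captured and 29.5% among FA libraries. The spread of the captured libraries may thus be understated in the adjusted p of this fit. At 1.5 mm 14.6% of all rows passed, 2.92% higher and 11.6% lower in the captured cells, and 10 of 14 mitochondrial and 3 of 11 plastid rows were higher. rrn26 (2.19, SE 0.28, adjusted p = 0.000156), rrn5 (2.64, SE 0.36, adjusted p = 0.000241), rrn18 (2.01, SE 0.35, adjusted p = 0.00163) and trnR-a (3.45, SE 0.48, adjusted p = 0.000242) kept their calls without any 1 library, as did trnP-a1, trnD and trnL-b. The calls of trnK, trnC-ct, trnS-a and of the plastid rows ZemaCr119, trnK and trnG had adjusted p from 0.0124 to 0.0407 and each was lost without FA 1.5 mm replicate 1 and without FA 1.5 mm replicate 3. For rrn18 at 1.5 mm only TAP (14086 and 14467 CPM) lay above FA (1487, 2835 and 1353 CPM). ME (6175 and 2307 CPM) and OSC (4783 and 2322 CPM) overlapped FA. ME also overlapped FA at that length for ZemaCr119 (45.9 and 9.30 CPM) and plastid trnK (28.3 and 3.22 CPM). At 2.0 mm 11.5% of all rows passed, 0.448% higher and 11.1% lower, and rrn26 (1.06, SE 0.31, adjusted p = 0.0383), trnD (2.55, SE 0.55, adjusted p = 0.00838) and ZemaCr115 (2.98, SE 0.70, adjusted p = 0.0126) were higher by edgeR. For rrn26 only ME (20848 and 25872 CPM) lay above FA (6263 and 3848 CPM) at that length. TAP (6235 and 5487 CPM) and OSC (4215 and 6223 CPM) lay within the FA range. For trnD, OSC (5.32 and 4.55 CPM) lay within the FA range (5.65 and 2.60 CPM), and TAP and ME lay above it. ZemaCr115 had only 8 and 3 counts in FA at 2.0 mm. Its sum with ZemaCr118 was 3.54 ± 0.108 CPM there, close to TAP (4.05 ± 0.404 CPM). That sum was 52.8 ± 44.2 CPM in ME and 17.7 ± 8.18 CPM in OSC at 2.0 mm (SD, n = 2 each). Here rrn26 held in 5 of the 17 fits without 1 library, trnD was lost without FA 2.0 mm replicate 2 (0.115), and ZemaCr115 without either FA library of 2.0 mm (up to 0.119). The median log2 difference over all rows was -0.46 at 1.5 mm and -0.71 at 2.0 mm. Capture, sectioning and RNA amount differ between captured and whole anthers together with cell type and cannot be told apart from it.

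The ribosomal proteins encoded in the same genomes are the partners of these rRNAs. The mitochondrial list has 14 genes, 11 of them tested in captured libraries. Within TAP, where 3.71% of all rows passed, 7 fell at 2.0 mm and 0 rose, with rps1 (ZeamMp097, the most abundant) at 600 ± 53.7 CPM at 2.0 mm and 8709 ± 327 CPM at 1.5 mm (SD, n = 2 each; log2 -3.83, SE 0.55, adjusted p = 0.00254). In TAP against ME at 2.0 mm (27.7% of all rows) 8 were lower and 0 higher, and in ME against OSC at 2.0 mm (36.9% of all rows) 7 were higher and 0 lower. In FA, where 29.7% of all rows passed, 4 of 10 tested rose and 2 fell at 2.0 mm. rps12 (ZeamMp092) rose there (1.38, SE 0.30, adjusted p = 0.00955), while rps1 did not pass (-0.31, SE 0.15, adjusted p = 0.141).

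The plastid list has 25 genes, 14 of them tested in captured libraries. In FA, where 29.7% of all rows passed, 7 of 9 tested fell at 2.0 mm and 0 rose. In ME against OSC at 2.0 mm (36.9% of all rows) 5 were higher and 0 lower, and in TAP against OSC at 2.0 mm (15.0% of all rows) 2 were higher and 0 lower. The gene rps7 has a pair of rows of equal length, as the rRNA genes do, and the difference between them was not tested. ZemaCp100 fell in FA (log2 -6.69, SE 0.46, adjusted p = 2.32e-05) and was higher in ME (4.85, SE 0.78, adjusted p = 0.000883) and in TAP (3.33, SE 0.74, adjusted p = 0.0100) against OSC at 2.0 mm. ZemaCp076 had 0.38 (SE 0.27), -0.43 (SE 1.04) and -2.55 (SE 1.09) in the same comparisons and passed in none. Summed, the pair had 50.2 ± 3.62 CPM in FA at 2.0 mm (n = 2) and 117 ± 10.7 CPM in FA at 1.5 mm (n = 3). Of the plastid RNA polymerase genes 2 of 4 were tested in captured libraries, and rpoC2 fell at 2.0 mm in OSC (adjusted p = 0.0345) and in FA (0.000550) by edgeR. matK, which in land plants is encoded inside the intron of trnK, had 293 ± 56.0 CPM in OSC at 2.0 mm and 812 ± 146 CPM in OSC at 1.5 mm (SD, n = 2 each). OSC at 1.5 mm had the highest mean of the 8 groups for matK and for plastid trnK.

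Rows with the most similar pattern were sought over the 17 libraries among 9050 rows with a mean of at least 20 CPM, by Pearson's r of log2 CPM, as a description. For rrn26 a nuclear row led (r = 0.965), and the closest organelle rows were mitochondrial rps7 (0.933) and trnP-a1 (0.922). For rrn18 they were trnL-b (0.935), nad3, a subunit gene of respiratory complex I (0.919), and rrn26 (0.910). For ZemaCr114 the 5 closest rows were all nuclear (0.891 to 0.911). For plastid trnfM a nuclear non-coding RNA row led (0.911) and the closest plastid row was atpF, a subunit gene of the ATP synthase (0.875). The points share library depth and replicate group.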

How the data were processed

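The authors deposited 1 table of raw counts per gene for 17 libraries, with a gene length in bases. The submitters' processing notes name fastp, Trim Galore and HISAT2. Versions, the counter, genome build, annotation, strand setting and any collapsing of molecular identifiers are not given in the sources used here, so overlapping genes, antisense partners and near-identical copies are uncertain. Each library's group and number were read from its title. Organelle rows were matched to a RefSeq gene table (assembly Zm-B73-REFERENCE-NAM-5.0) by locus tag, for symbols, gene type and neighbours only; 76 of 76 matched. No genome sequence was used, and no sequence or coordinate is given.

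CPM is counts over the library total of all rows. Counts were tested with edgeR 4.0.16 (limma 3.58.1, R 4.3.3), glmQLFit and glmQLFTest with robust dispersions, TMM factors, filterByExpr by group (minimum count 10, minimum total 15) and Benjamini-Hochberg adjustment over all rows tested. The 12 captured libraries were fitted together, the 5 FA libraries apart, and all 17 for captured cells against FA. The script was tested on simulated counts. Alternatives were other scalings, no filter, DESeq2 1.42.0, other sets of libraries, a replicate block and each library left out. Replicates never agreed within sampling noise (lowest chi-square per degree of freedom 3.38). Rows averaging at least 20 counts in at least 1 group were named. The members, lists and rules were chosen with earlier results of these data known.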

Additional observations from a re-analysis of the deposited data

Results flagged for a closer look

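The change with anther length differed between TAP, ME and OSC by edgeR's interaction test for rrn5 (adjusted p = 0.0144), trnL-b (adjusted p = 0.0399) and rrn26 (adjusted p = 0.0490), with log2 changes for rrn5 of -5.19 in TAP, -0.06 in ME and 1.81 in OSC.

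For 3 rows all libraries of a captured cell type moved one way with length and all FA libraries the other. Differences between captured cells and FA in this change were not tested. In mean log2 CPM, rrn5 changed by -5.39 in TAP and 2.49 in FA, a difference of -7.88. ZemaCr114 changed by -3.40 in TAP and 0.93 in FA, a difference of -4.34. Its sum with the equal-length ZemaCr119 was 9.70 ± 4.67 CPM in TAP at 2.0 mm and 123 ± 11.6 CPM in TAP at 1.5 mm (SD, n = 2 each), and 31.3 ± 11.4 CPM in FA at 2.0 mm (n = 2) and 30.9 ± 10.2 CPM in FA at 1.5 mm (n = 3), with no such opposite change. ZemaCr115 changed by 1.74 in ME and -3.69 in FA, a difference of 5.43. Its sum with ZemaCr118 was 52.8 ± 44.2 CPM in ME at 2.0 mm and 14.8 ± 2.73 CPM in ME at 1.5 mm, and 3.54 ± 0.108 CPM in FA at 2.0 mm and 32.7 ± 6.59 CPM in FA at 1.5 mm. No group had enough libraries for a check of single outlying libraries.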

How the results depend on the processing

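Of 1145 refits of the log2 changes of called rows, over 57 results, 969 kept the call, 175 lost it and 1 reversed: trnL-c-ct in TAP against ME at 2.0 mm ran from -4.94 (without ME 2.0 mm replicate 2) to 0.49 (without ME 2.0 mm replicate 1). Leaving out 1 library, organelle rows called ranged 0 to 2 (TAP against ME, 1.5 mm), 3 to 12 (2.0 mm), 1 to 5 (ME against OSC, 1.5 mm), 5 to 17 (2.0 mm), 0 to 4 (TAP against OSC, 1.5 mm), 2 to 5 (2.0 mm), 4 to 11 (TAP lengths), 0 to 0 (ME lengths), 0 to 4 (OSC lengths), 4 to 7 (FA lengths), 7 to 19 and 0 to 6 (captured against FA, 1.5 and 2.0 mm) and 0 to 6 (interaction). Shares of all rows called under these alternatives are not given here, so the counts describe the settings and not the organelle rows. The rows tested differed too. For OSC lengths 25 organelle rows were tested in the main fit, 44 by DESeq2 or unfiltered, and 16 with only the 4 libraries compared. Counts moved by over 1.5 times as follows, and the cause was not tested. TAP against ME at 1.5 mm (0) became 4 by DESeq2, 2 by RLE factors, 5 in a fit of all 17 libraries, 2 by library totals and 3 unfiltered. OSC lengths (0) became 7, 2, 4, 2 and 5 in the same order, and 10 with only the 4 libraries compared. TAP against OSC at 1.5 mm (0) became 3 by DESeq2, 4 with all 17, 3 unfiltered and 4 with only 4 libraries, and at 2.0 mm (3) became 5, 6, 5 and 7. ME against OSC became 6 by DESeq2 and 5 with all 17 at 1.5 mm (from 3), and 19 with all 17 at 2.0 mm (from 12). TAP lengths (8) became 13 by DESeq2 and 14 with only 4 libraries. FA lengths (5) became 3 with all 17 and 9 unfiltered. Captured against FA at 2.0 mm (3) became 6 by DESeq2 and 6 unfiltered. The interaction (3) became 8 by DESeq2, 5 by RLE factors and 8 unfiltered.

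Replicate numbers gave no sign of pairing: over 28 pairs of groups the deviations of same-numbered libraries correlated at -0.230 to 0.1005 (median -0.000369). This check cannot exclude pairing, since counting noise draws such correlations toward 0. With the replicate block, counts were 1 in TAP against ME and 1 in TAP against OSC at 1.5 mm (from 0), 7 in captured against FA at 1.5 mm (from 13) and 1 in the interaction (from 3); no other count moved by over 1.5 times. Depth limits the plastid and low tRNA rows most, since 3 counts equal up to 10.7 CPM.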
